A study of Homo sapiens with 28 samples.

Results

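Untreated xenograft tumors of HCT116, a human colorectal carcinoma cell line, were compared with cell cultures derived from such tumors and grown without drug. The comparison took the 3 in vivo Control libraries and the 3 ex vivo Control libraries, 6 of the 28 libraries in the series, and covered all genes. Control tumors came from HCT116 Luciferase-GFP cells, which carry both reporters from lentiviral transduction, injected subcutaneously into the flank of 5-week-old male NOD SCID mice. These mice lack mature T and B cells but keep innate immune cells and mouse stroma. The mice received vehicle by oral gavage daily for 23 days from day 8, and the tumors were frozen. For the Control cultures, tumors of vehicle-treated mice were digested with collagenase IV and trypsin, strained and plated in DMEM/F12 medium with glutamine, glucose and 10% fetal bovine serum. All 6 libraries thus share 1 parental line, the reporters, passage through a mouse and vehicle. The other 22 libraries are tumors and cultures of mice given Palbociclib (a CDK4/6 inhibitor), Telaglenestat (a glutaminase inhibitor) or both. They enter only where an arm is set beside the Control arm. The comparison asks how the transcriptome of the cells in a tumor differs from that of the cells expanded from tumors in rich medium.

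A subcutaneous tumor outgrows its blood supply, and low oxygen stabilises HIF transcription factors, which switch on glucose uptake, glycolysis and vessel growth. Interferon, a cytokine released on viral or nucleic acid sensing, signals through JAK kinases to STAT and IRF transcription factors and induces antiviral genes and the antigen presentation machinery. When amino acids run short or cysteine import is stressed, the transcription factor ATF4 raises amino acid transporters and synthesis enzymes. Cells that enter division raise S phase and G2/M genes through E2F and the MuvB complexes.

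Gene counts summed to between 7198540 and 8849414 per library. Levels below are CPM, library-size-scaled read counts, on libraries scaled by the trimmed mean of M-values (TMM). Fold changes and p-values come from the quasi-likelihood test of edgeR, and p-values were adjusted by Benjamini-Hochberg over all 13881 genes tested, with n = 3 tumors and n = 3 cultures throughout, and a gene passed at an adjusted p under 0.05. Log2 CPM correlated at 0.972 to 0.977 between libraries of the same group and at 0.893 to 0.922 between a tumor and a culture. Which tumor gave rise to which culture is not stated, nor is whether tumors and cultures were extracted or sequenced together, so a processing batch cannot be told apart from the groups. Epithelial identity genes were present in both groups. EPCAM, the epithelial adhesion molecule, stood at 408, 405 and 421 CPM in Control tumors and 395, 412 and 382 CPM in Control cultures (log2 fold change 0.05 ± 0.077 (SE), adjusted p = 0.579), the groups overlapped, and it passed as higher with the GC trend removed (0.23). The keratins KRT8, KRT18 and KRT19 and E-cadherin (CDH1) exceeded 89.1 CPM in each of the 6 libraries, while CEACAM5, a colon marker, had no count in any.

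GC content moved with the groups. The slope of log2 CPM on gene GC content, relative to the mean of the 6 libraries and per SD of GC, was 0.199 to 0.211 in the tumors and -0.143, -0.363 and -0.11 in cultures 1, 2 and 3. Among the fifth of genes with the lowest GC content 10.3% were higher and 49.3% lower in tumors, and among the fifth with the highest 58.8% were higher and 2.24% lower. For most lists below, a GC-corrected median log2 fold change is therefore also given. It was taken after subtracting from each library a spline fit of its values on GC content and length. Whether this trend is technical was not tested.

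**Figure D1:**
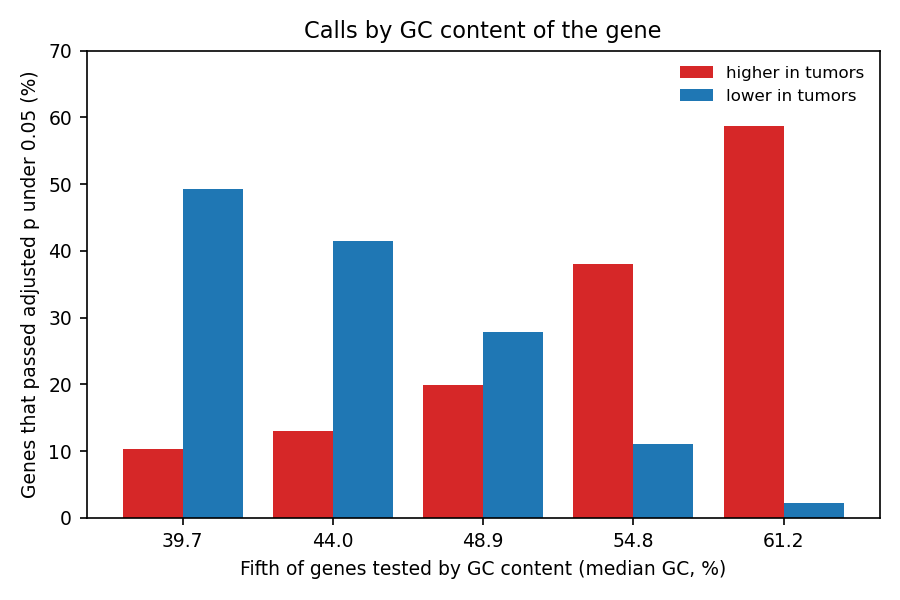
Share of genes that passed an adjusted p under 0.05, higher (red) or lower (blue) in the 3 Control tumors than in the 3 Control cultures, for 5 equal groups of genes ordered by GC content (x axis, median GC in %). The share higher grew from 10.3% to 58.8% and the share lower fell from 49.3% to 2.24% from the lowest to the highest GC content.

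Tumors and cultures differed at 54.3% of the genes tested. Of 13881 genes, 3885 were higher in tumors (28%) and 3656 lower (26.3%), and the median log2 fold change of all genes was 0.05. The larger changes were mostly rises, with 1995 genes at least 2-fold higher and 649 at least 2-fold lower. With the GC and length trend removed, 2783 genes were higher (20%) and 3866 lower (27.9%), with a median of -0.07. Of the 3885 genes, 2222 remained higher and 86 were called lower. Of the 3656 genes, 2832 remained lower. All 3 tumors lay above all 3 cultures for 33% of genes, and below them for 30.1%.

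**Figure D2:**
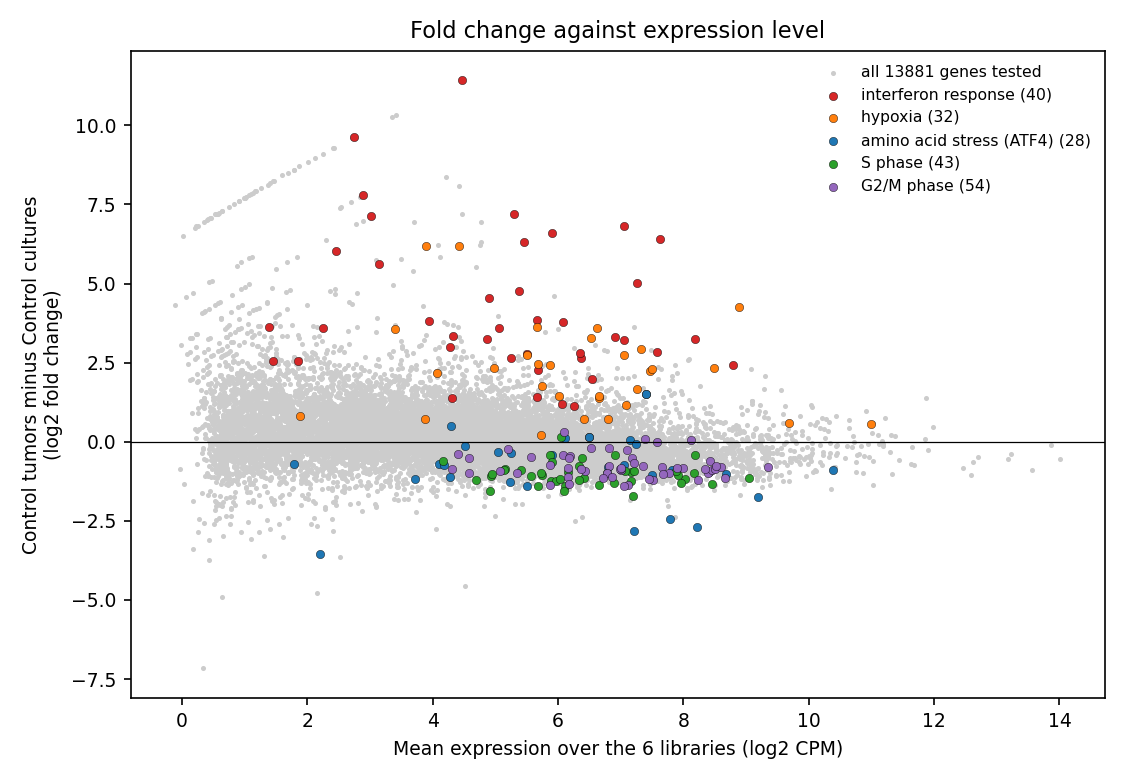
Log2 fold change, Control tumors minus Control cultures (y axis), against mean expression in log2 CPM over the 6 libraries (x axis), 1 point per gene tested, with members of 5 gene lists in colour. Interferon response (red) and hypoxia (orange) genes lie above 0, most S phase (green), G2/M (purple) and amino acid stress (blue) genes below it, and the diagonal row of grey points at upper left holds genes with no count in any culture.

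The 15 largest rises among well-expressed protein-coding genes were led by interferon-induced genes, keratins, collagens and a hypoxia marker. They were IFI44L, COL1A2, COL3A1, KRT5, IFI44, KRT6B, RSAD2, IFI27, OAS1, IFI6, PMEPA1, IFITM1, MMP7, IGFBP3 and CA9. KRT5, a basal epithelial keratin, stood at 25.9, 38.5 and 60.2 CPM in Control tumors and 0.263, 0 and 0.147 CPM in Control cultures. It was detected in every tumor and had only 3 counts over the 3 cultures, a ratio of 298-fold, with an exact 95% counting interval from 102 to 1445. KRT6B, a keratin of wounded and stratified epithelium, stood at 26.1, 60.5 and 39.9 CPM in Control tumors and 0, 0.265 and 0.588 CPM in Control cultures, and the tumors spread widely among themselves for both keratins. PMEPA1, a TGF-beta target, was 80.4-fold higher in tumors (log2 fold change 6.33 ± 0.27 (SE), adjusted p = 9.02e-09), and IGFBP3, a binding protein for insulin-like growth factors, 74.1-fold higher in tumors (log2 fold change 6.21 ± 0.24 (SE), adjusted p = 2.64e-09).

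The falls were smaller. ADGRF1, an adhesion G protein-coupled receptor, fell the most among them, from 49.8, 46.8 and 36.7 CPM in cultures to 1.2, 2.38 and 2.01 CPM in tumors (log2 fold change -4.57 ± 0.23 (SE), adjusted p = 2.62e-08). After SLC7A11, PSAT1, CDK6 and ASNS, described below, came GDA, a guanine deaminase, at 5.22-fold lower in tumors, ALDH1A3, a retinaldehyde dehydrogenase, at 5.2-fold lower in tumors, GPAT3, an acyltransferase of triglyceride synthesis, at 5.07-fold lower in tumors, and DHRS3, a retinaldehyde reductase, at 4.65-fold lower in tumors. CYP24A1, the hydroxylase that inactivates vitamin D, fell from 322, 361 and 360.5 CPM to 90.2, 69.8 and 96.5 CPM, with no overlap. CPA4 (-2.02), NR2F2 (-2.02) and 3 loci under clone names, RP11-73M18.2, AP000275.65 and AC116366.7, completed the 15. Those 3 loci overlap 2 or 3 other genes on the same strand, so their counts are uncertain. The values in parentheses here and below are log2 fold changes, tumors minus cultures.

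Interferon response genes rose together. All 40 members tested were higher in tumors, with a median log2 fold change of 3.46 (GC-corrected 3.36), against 28% higher and a median of 0.05 over all genes, and for all 40 the groups did not overlap. The letters of the interferon-stimulated response element, GAAA, any 2 bases and GAAA again on either strand, were present in 20 of 32 promoters matched (62.5%), against 3.65% of the 27305 promoters in the table and 2.71% of those of the genes tested. Motif shares here and below cover tested list members whatever their fold change. They describe the lists and do not test the rises or falls. The window was 300 bases, from 250 before to 50 after the first start site listed. The neighbouring genes IFI44L and IFI44, among the largest rises, show the element in the 200 bases before their start (RefSeq, GRCh38.p14, 5′ to 3′ on the gene's strand, matches in capitals).
IFI44L, chr1:78620248-78620447, plus strand: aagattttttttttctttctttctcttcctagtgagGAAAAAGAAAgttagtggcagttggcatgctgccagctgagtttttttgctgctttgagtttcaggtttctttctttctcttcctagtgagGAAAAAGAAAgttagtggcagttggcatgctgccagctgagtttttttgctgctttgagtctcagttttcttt
IFI44, chr1:78649589-78649788, plus strand: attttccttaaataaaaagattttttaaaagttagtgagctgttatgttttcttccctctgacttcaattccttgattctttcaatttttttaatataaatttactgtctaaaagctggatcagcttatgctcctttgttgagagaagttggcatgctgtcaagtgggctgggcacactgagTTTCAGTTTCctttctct
IFI44L holds 2 matches, which begin 164 and 73 bases before the start, and IFI44 holds 1, which begins 18 bases before it. IFI44L stood at 45.3, 38.4 and 44.7 CPM in Control tumors and 0, 0 and 0 CPM in Control cultures. With no count in any culture, it was at least 104-fold higher in tumors, taking 3 counts per culture library as the floor. IFI44 stood at 81.2, 69.2 and 78.7 CPM in Control tumors and 0.527, 0.53 and 0.441 CPM in Control cultures (log2 fold change 7.21 ± 0.20 (SE), adjusted p = 2.05e-10).

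The other leading members cover effectors that block viral replication. IFI27 stood at 258, 242 and 284 CPM in Control tumors and 2.77, 1.19 and 2.94 CPM in Control cultures, and IFI6, a mitochondrial survival protein, at 389, 363 and 414 CPM in Control tumors and 5.27, 4.91 and 3.38 CPM in Control cultures (log2 fold change 6.41 ± 0.14 (SE), adjusted p = 4.46e-11). The level of IFI6 was 85.1-fold higher in tumors, and the 3 tumors lay close together. OAS1, which makes the second messenger that activates RNase L, stood at 109, 117 and 123 CPM in Control tumors and 1.05, 1.06 and 1.47 CPM in Control cultures (log2 fold change 6.60 ± 0.16 (SE), adjusted p = 1.03e-10). ISG15, a ubiquitin-like modifier, stood at 56, 59.9 and 50.2 CPM in Control tumors and 3.69, 1.59 and 1.76 CPM in Control cultures and was 23.3-fold higher in tumors. For RSAD2 (viperin), 2 counts over the cultures gave a ratio of 162-fold, with an exact 95% counting interval from 44.6 to 1344. XAF1 had no culture count and was at least 30.0-fold higher, and MX2 had 1, a ratio of 299-fold, with an exact 95% counting interval from 53.3 to 11830.3. IFI44L and XAF1, the 2 members with no culture count, passed the count filter through the tumors alone and could not be called lower. Transcription factors of the interferon response rose too, among them IRF9 (3.59), IRF7 (3.60) and STAT2 (1.20). The smallest rise in the list was IFIT5 (1.15). IFITM1 (6.32) shares sequence with IFITM2 and IFITM3 and overlaps another gene on its strand, so its counts are uncertain. Of 17 macrophage and leukocyte markers, 14 were below the count filter. The 3 above it were higher in tumors, CD68 at means of 10.7 CPM in tumors and 0.96 CPM in cultures, CSF1R at 3.7 and 0.532 CPM, and LYZ at 3.49 and 0.049 CPM. All 3 were too low in cultures to pass the filter there, so they could not be called lower. PTPRC averaged 0.192 CPM in tumors, and C1QA, C1QB, C1QC, CD163, TYROBP, S100A8 and S100A9 had no count in any of the 6 libraries. The 17 markers together summed to 16.6 to 22 CPM in tumors and 0.663 to 3.67 CPM in cultures. How mouse reads that align to human genes were treated is not stated, and their part in these values was not tested.

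Antigen presentation genes were higher in tumors as well. Of 19 members tested, 18 rose, with a median of 2.21 (GC-corrected 1.90). For class I, B2M, the invariant light chain, stood at 1153, 1114 and 1151 CPM in Control tumors and 367, 379.8 and 361 CPM in Control cultures (log2 fold change 1.63 ± 0.079 (SE), adjusted p = 2.22e-08), with no overlap. HLA-B (2.62), HLA-C (2.08) and HLA-F (2.85) rose, though near-identical class I genes can share reads. PSMB9, an immunoproteasome subunit that trims peptides for class I, was 19.6-fold higher in tumors, and its partner PSMB8 rose at low counts, 1.42, 2.27 and 3.64 CPM in Control tumors and 0, 0.133 and 0.588 CPM in Control cultures. TAP1, the peptide transporter into the endoplasmic reticulum, stood at 106, 113 and 112 CPM in Control tumors and 26.6, 22.1 and 23.5 CPM in Control cultures, and NLRC5, the transactivator of class I genes, rose (2.33). Among class II genes, CD74, the invariant chain, stood at 2.4, 4.11 and 2.76 CPM in Control tumors and 0.527, 0.265 and 0 CPM in Control cultures, HLA-DPA1 rose (3.51), and HLA-DRA rose at a low level, 3.28, 4.65 and 4.89 CPM in Control tumors and 0.263, 0.53 and 2.06 CPM in Control cultures. CIITA, the class II transactivator, was below the count filter at means of 0.473 CPM in tumors and 0.877 CPM in cultures. PSMB10 did not pass (0.46, adjusted p = 0.254). PSMB8 and the class II genes tested, at culture means of 0.24 to 0.95 CPM, were too low in cultures to pass the count filter there. They could not be called lower, so the count of 18 rises was partly fixed by the filter.

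**Figure D3:**
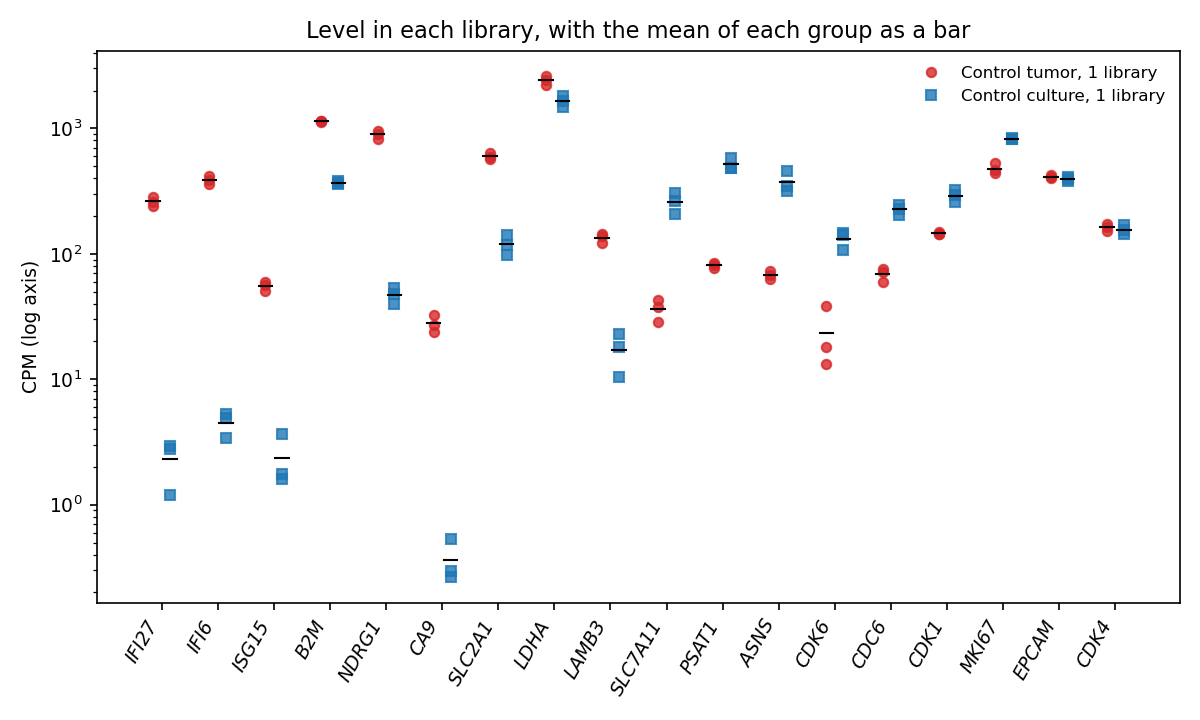
Level in CPM (log axis) of 18 genes in each of the 3 Control tumors (red circles) and 3 Control cultures (blue squares), with a bar at each group's mean. Interferon, hypoxia and laminin genes are higher in all 3 tumors, SLC7A11 to MKI67 are lower in all 3, and EPCAM and CDK4 overlap.

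Hypoxia genes formed the next group. Of 32 members tested, 29 rose, with a median of 2.20 (GC-corrected 2.13), and LOX (0.81, adjusted p = 0.0825), PFKFB3 (0.20) and STC2 (0.16) did not pass. With the GC trend removed LOX was called higher (1.07) and PFKFB3 lower (-0.52). The hypoxia response element core, ACGTG on either strand, was present in 15 of 26 promoters matched (57.7%), against 21.6% of the 27305 promoters in the table and 27% of those of the genes tested. CA9, the surface carbonic anhydrase used as a hypoxia marker, and ALDOC, a glycolytic aldolase, each hold 1 match in the 200 bases before their start, in capitals here as read on the gene's strand.
CA9, chr9:35673728-35673927, plus strand: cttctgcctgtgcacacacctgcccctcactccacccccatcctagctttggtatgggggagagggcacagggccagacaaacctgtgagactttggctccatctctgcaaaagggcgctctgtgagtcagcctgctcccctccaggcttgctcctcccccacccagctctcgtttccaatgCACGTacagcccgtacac
ALDOC, chr17:28576896-28577095, minus strand: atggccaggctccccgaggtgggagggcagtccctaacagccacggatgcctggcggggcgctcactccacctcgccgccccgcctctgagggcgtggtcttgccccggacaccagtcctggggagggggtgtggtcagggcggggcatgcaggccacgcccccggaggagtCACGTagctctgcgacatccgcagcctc
The match begins 18 bases before the start of CA9 and 28 before that of ALDOC. CA9 stood at 27.2, 23.7 and 32.7 CPM in Control tumors and 0.263, 0.53 and 0.294 CPM in Control cultures (log2 fold change 6.20 ± 0.30 (SE), adjusted p = 2.27e-08), and ALDOC at 162, 201 and 178 CPM in Control tumors and 13.6, 9.95 and 22 CPM in Control cultures (log2 fold change 3.58 ± 0.20 (SE), adjusted p = 6.6e-08). NDRG1, a stress-induced gene, was the most abundant of the strong risers at 827, 904 and 948 CPM in Control tumors and 48.2, 39.7 and 53 CPM in Control cultures, 19-fold higher in tumors. ANGPTL4, which inhibits lipoprotein lipase, was 72.6-fold higher in tumors, and PFKFB4 (3.61), a regulator of glycolytic flux, and ANKRD37 (3.56) rose in the same range. PDK1, which closes pyruvate dehydrogenase, stood at 89.5, 100.2 and 101 CPM in Control tumors and 11.5, 19.4 and 24.1 CPM in Control cultures, and VEGFA, the angiogenic factor, at 139.6, 165 and 132 CPM in Control tumors and 54.1, 47.5 and 64.7 CPM in Control cultures. HIF1A itself, whose product is controlled by protein stability, was lower in tumors at 229, 278 and 221 CPM in Control tumors and 310.4, 340.5 and 283 CPM in Control cultures (log2 fold change -0.36 ± 0.10 (SE), adjusted p = 0.0114), and did not pass with the GC trend removed (-0.01).

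Glycolysis genes were mostly higher in tumors. The list shares members with the hypoxia list, among them SLC2A1, ENO2, ALDOC and LDHA. Of 20 members, 16 rose and 3 fell, with a median of 0.90 (GC-corrected 0.64). SLC2A1, the main glucose transporter, stood at 565, 638 and 596 CPM in Control tumors and 141, 98.4 and 118 CPM in Control cultures, 5.03-fold higher in tumors (log2 fold change 2.33 ± 0.12 (SE), adjusted p = 3.34e-08). ENO2 (2.73), ALDOA (2.09), PFKL (1.84) and GPI (1.67) rose. LDHA, which reduces pyruvate to lactate, was already abundant and rose less, at 2204, 2621 and 2419.6 CPM in Control tumors and 1637, 1819 and 1470 CPM in Control cultures (log2 fold change 0.56 ± 0.10 (SE), adjusted p = 0.000569). The members that fell were the monocarboxylate carrier SLC16A1 (-0.97), LDHB (-0.80) and the muscle-type PFKM (-0.26), while SLC16A3, the lactate exporter, rose (1.36).

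Mitochondrial oxidation genes were mostly lower. Of 25 tricarboxylic acid (TCA) cycle genes, 16 fell and 4 rose, with a median of -0.45 (GC-corrected -0.34). FH, fumarase, was 2.09-fold lower in tumors (log2 fold change -1.07 ± 0.094 (SE), adjusted p = 2.33e-06), and IDH3A (-1.06), DLAT (-1.04), the E2 subunit of pyruvate dehydrogenase, and SUCLA2 (-0.87) fell. The genes that rose were IDH3G (2.09), IDH2 (1.30), PC (0.94), pyruvate carboxylase, and OGDH (0.83), of which PC did not pass with the GC trend removed (0.07). Of 75 nuclear genes of the respiratory chain, 40 fell and 13 rose, with a median of -0.32. NDUFB3 (-0.95) and UQCRFS1 (-0.90) fell the most, and NDUFA13 (1.15) and NDUFA3 (1.04) were among the highest. Neither of the last pair passed with the GC trend removed (0.36 and 0.45), when 34 fell and 3 rose, and the median was -0.24. Of the 13 protein genes encoded in the mitochondrial genome, 10 fell, with a median of -0.50 (GC-corrected -0.28, 6 falling). MT-CO1, a subunit of cytochrome oxidase, was among the most abundant transcripts in both groups, at 14456, 13032 and 13155 CPM in Control tumors and 16944, 20458 and 21384 CPM in Control cultures (log2 fold change -0.53 ± 0.11 (SE), adjusted p = 0.00114). MT-ND2 (-0.72) and MT-ND1 (-0.70) fell the most of these genes.

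Amino acid stress genes were lower in tumors. Of 28 members tested, 17 fell and 2 rose, with a median of -0.77, and with the GC trend removed 23 fell and 1 rose, with a median of -1.02. SLC7A11, the cystine and glutamate exchanger, stood at 43.2, 37.6 and 28.4 CPM in Control tumors and 262, 208 and 306 CPM in Control cultures, 7.09-fold lower in tumors (log2 fold change -2.83 ± 0.16 (SE), adjusted p = 7.95e-08). PSAT1, an enzyme of serine synthesis, stood at 76.8, 81.4 and 83.9 CPM in Control tumors and 480, 487 and 584 CPM in Control cultures (log2 fold change -2.68 ± 0.10 (SE), adjusted p = 2.41e-09). ASNS, asparagine synthetase, stood at 73.2, 68.1 and 63.2 CPM in Control tumors and 349, 315 and 453 CPM in Control cultures (log2 fold change -2.45 ± 0.13 (SE), adjusted p = 4.11e-08). For all 3 genes the groups were far apart, and cultures varied by less than the gap. CHAC1, which degrades glutathione, had the largest fold change of the list at 0.874, 0.541 and 0.753 CPM in Control tumors and 8.43, 3.98 and 13.2 CPM in Control cultures (log2 fold change -3.53 ± 0.49 (SE), adjusted p = 7.67e-05), at low counts. MTHFD2 (-1.74), a mitochondrial folate enzyme, TRIB3 (-1.39) and ATF4 (-1.02) fell, DDIT4 (1.51), also in the hypoxia list, and CEBPB (0.50) rose, though CEBPB was lower with the GC trend removed (-0.50), and DDIT3 (-0.12) and PHGDH (-0.43, adjusted p = 0.0746) did not pass. PHGDH was called lower with the GC trend removed (-0.98). The ASNS promoter holds the amino acid response element letters, TGATGNAA, once, beginning 68 bases before the start. It is shown as the textbook target of ATF4, and 3.67% of all promoters in the table hold the letters on either strand, and 1.59% of those of the genes tested.
ASNS, chr7:97872409-97872608, minus strand: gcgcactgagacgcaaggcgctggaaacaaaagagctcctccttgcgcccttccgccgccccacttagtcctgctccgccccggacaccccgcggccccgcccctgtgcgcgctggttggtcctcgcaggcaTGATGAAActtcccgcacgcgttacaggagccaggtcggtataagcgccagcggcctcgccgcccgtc

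Genes of glutamine and glutamate handling were mostly lower as well. The largest falls of this list, SLC7A11 and ASNS, also belong to the amino acid stress list, and the lists share other members. They are thus not separate results. Of 20 members tested, 15 were lower and 2 higher, with a median of -0.77 (GC-corrected -0.80). GLUD1, glutamate dehydrogenase, fell to 186, 202 and 196 CPM in tumors from 281, 323 and 279 CPM in cultures (log2 fold change -0.60 ± 0.087 (SE), adjusted p = 0.000106). The amidotransferases of nucleotide synthesis PPAT (-1.25), PFAS (-1.15), CTPS1 (-1.08) and GMPS (-1.01) fell, as did the glutamine carrier SLC1A5 (-0.58). The glutamate carrier SLC1A1 (1.53) and glutamine synthetase GLUL (0.25) rose. Of 22 NRF2 and glutathione genes, SLC7A11 again among them, 11 fell and 6 rose, with a median of -0.25 (GC-corrected -0.36, 13 falling and 2 rising). GCLM (-1.65), a subunit of the enzyme that starts glutathione synthesis, and TXNRD1 (-1.42) fell, and AKR1C3 (2.71), OSGIN1 (1.93) and the exporter ABCC3 (1.85) rose, of which OSGIN1 did not pass with the GC trend removed (1.13).

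Most cell cycle genes were lower in tumors. Of 43 S phase genes, 42 fell, with a median of -1.04 (GC-corrected -0.93), and MCM5 did not pass (0.16, adjusted p = 0.386) but was called lower with the GC trend removed (-0.49). Of 54 G2/M genes, 45 fell, with a median of -0.84 (GC-corrected -0.68, 51 falling). The share lower over all genes was 26.3%. CDC6, which loads the replicative helicase, stood at 71.7, 75.7 and 59.1 CPM in Control tumors and 228, 247 and 202 CPM in Control cultures (log2 fold change -1.71 ± 0.11 (SE), adjusted p = 2.21e-07). TIPIN (-1.57), DSCC1 (-1.55), PRIM1 (-1.40) and GMNN (-1.39) followed. CDK1, the mitotic kinase, stood at 144, 149 and 143 CPM in Control tumors and 294, 321 and 257 CPM in Control cultures, 2-fold lower in tumors. HMMR (-1.41), NUF2 (-1.36) and DLGAP5 (-1.36) fell the most of the mitotic genes. MKI67, the proliferation marker Ki-67, stood at 438, 526 and 466 CPM in Control tumors and 819, 844 and 822 CPM in Control cultures (log2 fold change -0.80 ± 0.088 (SE), adjusted p = 1.23e-05), with no overlap. Among the 9 G2/M genes that did not pass were UBE2C (-0.19) and CDC20 (-0.25, adjusted p = 0.0943), both called lower with the GC trend removed (-0.29 and -0.74). The letters of the cell cycle homology region, TTTGAA on either strand, were present in 31 of 45 promoters matched (68.9%), against 15.4% of the 27305 promoters in the table and 9.38% of those of the genes tested. In bulk RNA, fewer cycling cells and less of these transcripts per cell cannot be told apart.

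The CDK4/6 and RB axis was split. Of 25 members, 11 fell and 3 rose, with a median of -0.16, and with the GC trend removed 16 fell and the median was -0.62. CDK6 had the largest fall, at 13.2, 38.7 and 18.1 CPM in Control tumors and 147, 142 and 107 CPM in Control cultures (log2 fold change -2.49 ± 0.28 (SE), adjusted p = 1.54e-05). The tumors spread widely, yet every tumor was below every culture. CDK6 overlaps 1 other gene on its strand. CDK4, which shares its function, stood at 153, 173 and 164 CPM in Control tumors and 169, 144 and 154 CPM in Control cultures (log2 fold change 0.07 ± 0.09 (SE), adjusted p = 0.52), with overlapping groups, and was called lower with the GC trend removed (-0.32). Cyclin D1, CCND1 (-0.51), cyclin E1, CCNE1 (-0.79), CDK2 (-0.71) and RBL1 (-1.03), a relative of RB, fell. The CDK inhibitors CDKN1C (1.23), CDKN2B (0.77) and CDKN1B (0.36) rose, and CDKN1A did not pass (0.21, adjusted p = 0.113). The rise of CDKN1C did not pass with the GC trend removed (0.35), and CDKN1A was then lower (-0.39). MYC, at 165, 193 and 196 CPM in Control tumors and 195, 199 and 226 CPM in Control cultures, did not pass either (-0.16, adjusted p = 0.174), and was called lower with the GC trend removed (-0.66). MTOR was lower (-0.47, adjusted p = 0.000803) and AKT1 higher in tumors (0.88, adjusted p = 0.000271), and AKT1 did not pass with the GC trend removed (-0.02).

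Ribosome making followed the cell cycle genes in direction, while ribosomal proteins were mixed. Of 30 nucleolar genes of ribosome biogenesis, 21 fell, with a median of -0.53 (GC-corrected -0.68, 28 falling). UTP20 (-1.30), GNL3 (-1.18), NOP56 (-1.10) and nucleophosmin, NPM1 (-1.01), were among them. Of 46 large-subunit ribosomal proteins, 23 rose and 9 fell, with a median of 0.21, from RPL28 (1.54) to RPL7 (-0.61), and reads of these genes can be shared with processed pseudogenes. EEF1A1, the translation elongation factor with the highest level in tumors, did not pass at 13625, 14513 and 15021 CPM in Control tumors and 15657, 14990.5 and 15419 CPM in Control cultures (adjusted p = 0.392).

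Heat shock chaperones were mostly lower. Of 20 heat shock genes, 14 fell and 5 rose, with a median of -0.81 (GC-corrected -0.75, 15 falling and 1 rising). HSPD1, the mitochondrial chaperonin, stood at 1144, 1164 and 1164 CPM in Control tumors and 2887, 3422 and 2679.8 CPM in Control cultures, and its partner HSPE1 (-1.38), HSP90AA1 (-1.05), HSPH1 (-1.20) and CHORDC1 (-1.50), an HSP90 partner, fell. HSPA1A, the inducible HSP70, rose at low counts (5.25, 2.7 and 5.65 CPM against 0, 0.928 and 0 CPM, adjusted p = 0.0015), shares nearly all of its sequence with HSPA1B, and its counts are uncertain. HSPB1 rose (1.09), but did not pass with the GC trend removed (0.19). Of 23 endoplasmic reticulum folding genes, 6 fell and 4 rose, with a median of -0.02, shares close to or below those over all genes. HSPA5, the main ER chaperone, fell slightly (-0.43). All 5 metallothionein-list genes tested rose, from SLC30A1, a zinc exporter (0.58), to MT1X (2.65), and MT2A stood at 60.9, 68.6 and 58.3 CPM in Control tumors and 32.7, 26 and 26.3 CPM in Control cultures. The metallothioneins are a family of near-identical genes.

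Genes of the cell surface, basement membrane and matrix were higher in tumors. Of 28 laminins, integrins and proteases, 21 rose and LAMC1 fell (-0.78), with a median of 1.14 (GC-corrected 1.01). LAMB3, a laminin beta chain of epithelial basement membranes, stood at 121, 143 and 139 CPM in Control tumors and 18.2, 10.3 and 23.1 CPM in Control cultures (log2 fold change 2.97 ± 0.20 (SE), adjusted p = 2.54e-07), and LAMA3, an alpha chain, was 11.8-fold higher in tumors. MMP7, an epithelial matrix protease, stood at 22, 34.9 and 39.3 CPM in Control tumors and 0.527, 0.398 and 0.294 CPM in Control cultures (log2 fold change 6.23 ± 0.35 (SE), adjusted p = 6.8e-08), and the integrin subunit ITGB4 rose (2.02). ITGB6, another, had 3 culture counts, a ratio of 16.6-fold, with an exact 95% counting interval from 5.43 to 83. ITGB1 did not pass (-0.20). Of 22 mesenchymal transition genes, 15 rose and 1 fell, with a median of 1.63 (GC-corrected 1.26). TGFBI, a TGF-beta-induced matrix protein, stood at 8.42, 8.11 and 10.7 CPM in Control tumors and 0.395, 0.53 and 0 CPM in Control cultures, while VIM (0.42, adjusted p = 0.248) and ZEB1 (-0.07) did not pass. ZEB2, MMP2 and TNC had no culture count and were at least 29.1-fold, 20.6-fold and 14.6-fold higher. They passed the count filter through the tumors alone and could not be called lower. Of 40 epithelial and colon differentiation genes, 20 could be tested, and 11 had no count in any of the 6 libraries. Most of the 20 rose in the same libraries, 14 with 3 falling and a median of 0.72 (GC-corrected 0.57). CEACAM1 (3.09), MUC1 (2.06), KRT19 (1.76) and KRT20 (1.73), a marker of differentiated colon cells, rose, and CA2, carbonic anhydrase 2, fell (-1.82).

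Markers of host tissue moved with these groups. Of 20 fibroblast markers, 15 could be tested and 14 rose, with a median of 4.61, or 2.52 with the 6 genes that had no culture count set at their lower bound. Those 6 genes passed the count filter through the tumors alone and could not be called lower, so the count of 14 is partly fixed by the filter. The 20 markers summed to 410.4 to 458 CPM in tumors and 44 to 67.3 CPM in cultures. COL1A2, a chain of type I collagen, stood at 22.6, 20.8 and 16.6 CPM in tumors with no culture count, at least 48.6-fold higher, and COL3A1 at 32, 44.7 and 29.4 CPM with 2 culture counts, a ratio of 391-fold, with an exact 95% counting interval from 108 to 3234. COL1A1 rose (4.61) from 5.27, 3.85 and 5.14 CPM in cultures. The fibroblast markers DCN, LUM and THY1 had no count in any of the 6 libraries. Muscle genes were also detected. ACTA1, skeletal muscle actin, stood at 22.7, 10.7 and 6.9 CPM in Control tumors and 0, 0 and 0.294 CPM in Control cultures, and MYH4, a fast muscle myosin, at 12, 5.62 and 3.39 CPM in tumors alone. The 14 blood, muscle and fat markers summed to 17.8 to 43 CPM in tumors and 1.32 to 2.24 CPM in cultures. Of 14 endothelial markers only EGFL7 and ESAM could be tested, EGFL7 rose (1.39, GC-corrected 0.41, which did not pass), and PECAM1, used to stain vessels, averaged 0.276 CPM in tumors with no count in cultures. The part of host tissue in the rise of matrix and mesenchymal genes was not tested.

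Immediate early genes were mostly higher in tumors, and signalling targets differed by pathway. Of 22 immediate early genes, 15 rose and 1 fell, with a median of 1.04 (GC-corrected 0.59, 13 rising and 4 falling). JUN, a subunit of AP-1, stood at 30.1, 33.5 and 29.7 CPM in Control tumors and 2.63, 3.98 and 3.97 CPM in Control cultures (log2 fold change 3.14 ± 0.19 (SE), adjusted p = 1.57e-07), and EGR2 (3.30), FOSB (2.48), FOS (2.09) and EGR3 (1.99) rose. Of 13 NF-kB and chemokine genes tested, 9 rose, with a median of 0.96, but with the GC trend removed 3 rose and 1 fell and the median was 0.16. BIRC3 (2.44), CXCL8 (2.26), TNFAIP3 (1.75) and RELB (1.69, which did not pass with the GC trend removed, 0.75) led it. Of 22 MAPK output genes, 10 rose and 3 fell, with a median of 0.16, but 6 rose and 7 fell with the GC trend removed. DUSP6, the ERK phosphatase, rose (1.50). Of 21 WNT targets, 12 could be tested and 9 rose, with a median of 0.69 (GC-corrected 0.46, 7 rising and 1 falling), EPHB3 (2.02) and TNFRSF19 (1.94) the most. LGR5, ASCL2, LEF1, APCDD1 and TDGF1 were among the 9 below the count filter. YAP/TEAD and p53 targets showed no common direction. Of 19 YAP/TEAD targets 3 rose and 5 fell (2 and 6 with the GC trend removed), with CRIM1 (-1.72) and AJUBA (-1.31) lowest. Of 26 p53 targets 6 rose and 10 fell (5 and 6 with the GC trend removed), from TRIM22 (3.20), which interferon also induces, to GDF15 (-1.11).

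Lipid and lysosome genes changed less. Of 25 cholesterol synthesis genes, 13 rose, with a median of 0.35 (GC-corrected 0.36). TM7SF2 (2.04), MVD (1.54) and LSS (1.21) rose the most. Of 16 fatty acid synthesis genes, 3 rose and 6 fell (median -0.04), but 1 rose and 8 fell with the GC trend removed (median -0.33). ACSS2 (1.17), the acetate-activating enzyme, and FASN (0.86, but -0.24 with the GC trend removed) were higher and ME1 (-1.05) was lower. Of 21 fatty acid oxidation genes, 5 rose and 6 fell (median -0.03), shares near those over all genes. With the GC trend removed 3 of them rose and 8 fell. ETFB (1.32) rose and ETFA (-0.83), its partner in the same flavoprotein, fell. Of 29 lysosome and autophagy genes, 15 rose and 6 fell, with a median of 0.53 (GC-corrected 0.05, 9 rising and 4 falling), GAA (2.27) and CTSD (2.11) the most. Of 16 replication-dependent histone genes, 6 could be tested and 4 rose, with a median of 1.06, among them H2BC5 (HIST1H2BD in the files). The other 10 were below the count filter in these poly(A) RNA libraries, so these values do not describe the histone genes as a group.

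**Figure D4:**
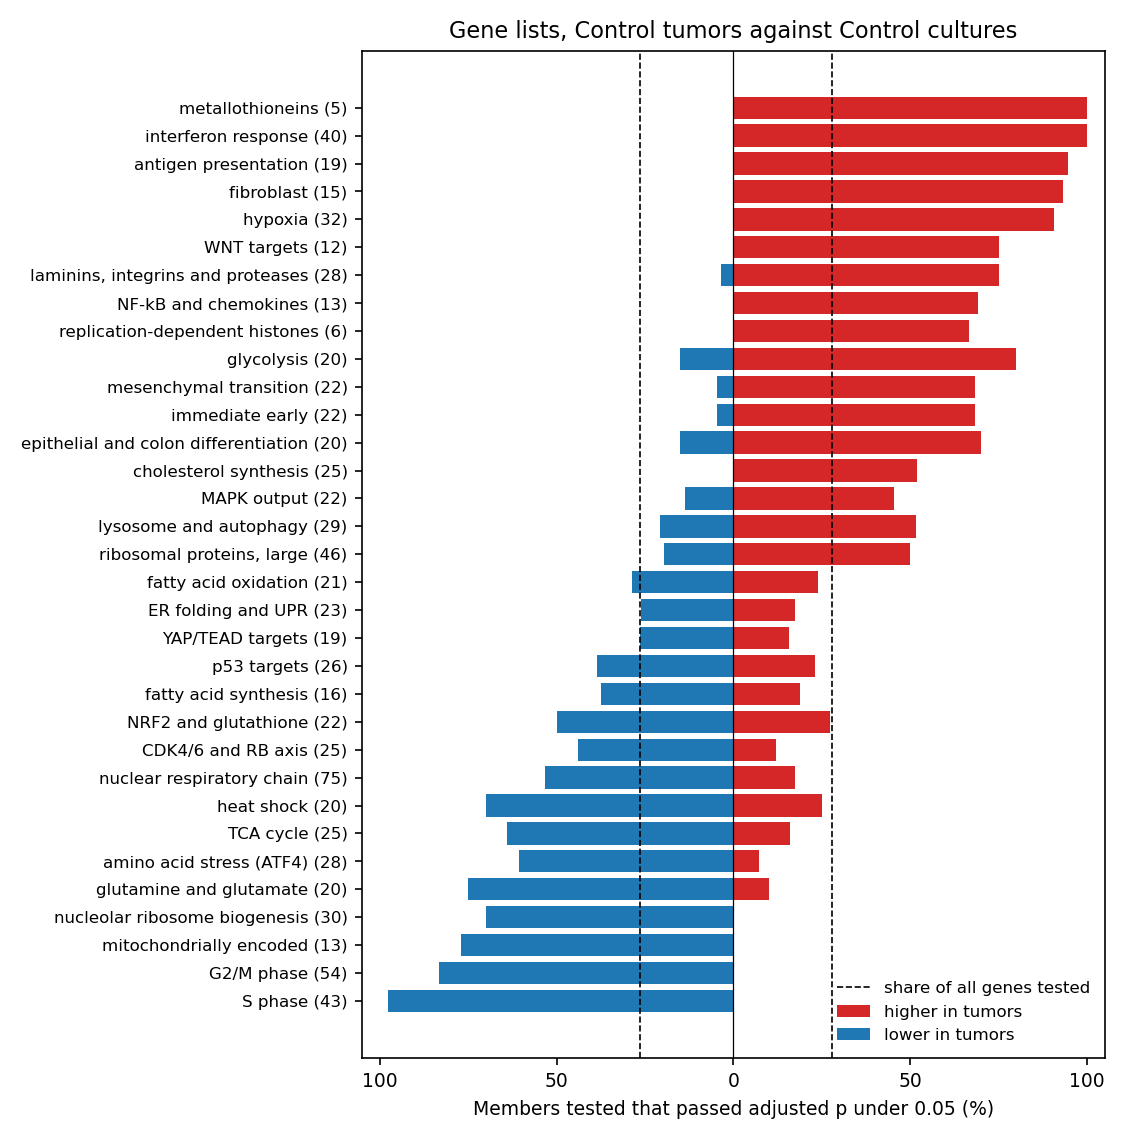
Share of the tested members of each gene list that passed an adjusted p under 0.05, higher in Control tumors (red, to the right) or lower (blue, to the left), in %, with the number of members tested in parentheses. Dashed lines mark the same shares over all genes tested, 28% higher and 26.3% lower, and the lists run from metallothioneins and interferon response at the top, all higher, to S phase at the bottom, with 42 of 43 lower.

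Tumors were also set against cultures in the 3 drug arms, which hold other tumors and other cultures. The tumors there came from mice dosed with drug, while the cultures were grown without drug. Growth site and presence of drug therefore cannot be told apart within a drug arm. Fits of their own found 5183 of 14469 genes higher (35.8%) and 31.7% lower in the Palbociclib arm (5 tumors, 3 cultures), 13.9% higher and 13.8% lower in the Telaglenestat arm (4 and 3), and 22.1% higher and 23.8% lower in the Combination arm (4 and 3). Of the genes higher in Control tumors and tested in both, 90.2% were also higher in the Palbociclib arm, 30.1% in the Telaglenestat arm and 54.2% in the Combination arm. These shared genes made up 71%, 59.6% and 67.8% of the genes higher in those arms. Of the genes lower in Control tumors, 92.5%, 25.7% and 68.1% were also lower in the same 3 arms, where they made up 74.1%, 49.97% and 77.1% of the genes lower. Calls of opposite sign in these arms numbered 4, 287 and 52 for genes higher in Control tumors, and 10, 56 and 59 for genes lower. These overlaps were taken without removing the GC trend.

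Interferon response medians in the Palbociclib, Telaglenestat and Combination arms were 3.89, 3.41 and 3.37, beside 3.46 in the Control arm. Hypoxia medians were 2.03, 1.59 and 1.803, beside 2.20, and amino acid stress medians -0.66, -1.34 and -1.06, beside -0.77. With the GC trend removed in each arm, interferon response medians were 3.39, 3.54 and 3.31, beside 3.36. Hypoxia medians were then 1.93, 1.70 and 1.82, beside 2.13, and amino acid stress medians -1.09, -1.02 and -1.14, beside -1.02. The order of the arms was not tested for whole lists, but single genes were tested for a difference between the Control arm and each drug arm, in 1 fit over all 28 libraries. That difference passed for 215 of 15466 genes against the Palbociclib arm (1.39%), 5278 against the Telaglenestat arm (34.1%) and 450 against the Combination arm (2.91%). The count against the Telaglenestat arm was 863 with the GC and length trend removed. With 1 Control library left out, the count against the Palbociclib arm was 66 (Control culture 3), 93 (culture 1), 314 (culture 2), 106 (Control tumor 2), 120 (tumor 1) or 123 (tumor 3), and that against the Combination arm was 126 (Control culture 2), 152 (Control tumor 3), 165 (tumor 1), 192 (tumor 2), 272 (culture 1) or 333 (culture 3). Cell cycle genes fell by more in the Palbociclib arm than in the Control arm, with 15 of 43 S phase genes and 29 of 54 G2/M genes passing the test of the difference, all in that direction, and medians of -1.92 and -1.74 beside -1.04 and -0.84. These counts ran from 5 and 12 without Control culture 3 to 18 and 30 without Control culture 2. They were 9 and 19 with the GC trend removed, and up to 28 and 42 with other fits and filters. The GC-corrected medians were -1.52 and -1.55 in the Palbociclib arm, beside -0.93 and -0.68 in the Control arm. Against the Telaglenestat arm the difference mostly had the other sign, with 19 S phase and 25 G2/M genes falling by more in the Control arm and 2 and 5 by less, and medians of -0.62 and -0.55 in the drug arm. With the GC trend removed 5 S phase and 3 G2/M genes fell by more in the Control arm and none by less. The medians were then -0.63 and -0.58 in the Telaglenestat arm, beside -0.93 and -0.68 in the Control arm. Without Control culture 2 the genes that fell by more in the Control arm numbered 11 and 12, and with no filter on low counts 13 and 14. Against the Combination arm 1 S phase gene passed (6 with the GC trend removed, and 17 with no filter on low counts). Against the same arm 16 G2/M genes passed (8 or 9 with 1 Control library left out, and 33 with no filter on low counts), again with the larger fall in the drug arm. All 13 genes encoded in the mitochondrial genome differed from the Combination arm (8 to 13 with 1 Control library left out), where their median was 0.76 rather than -0.50. CDK6 was lower in tumors in each drug arm too, with log2 fold changes of -1.97, -2.08 and -1.21.

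**Figure D5:**
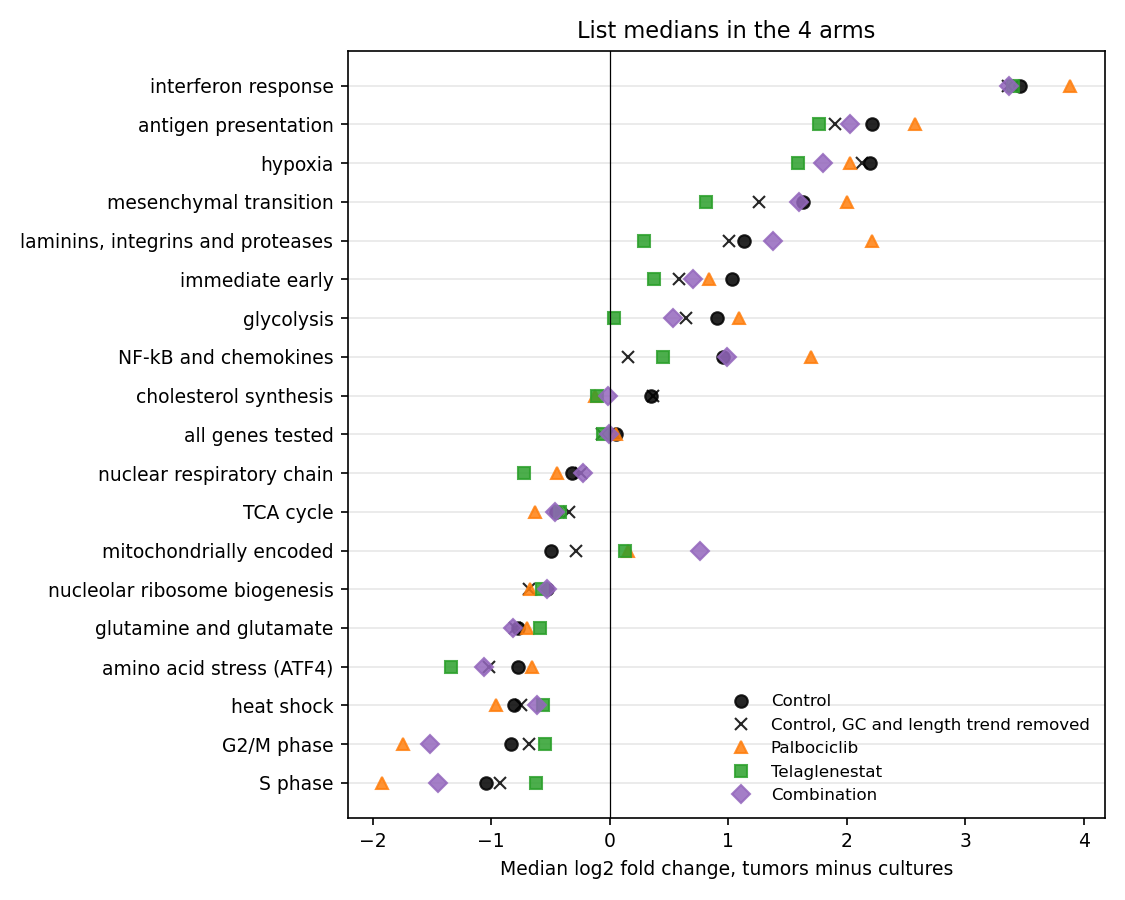
Median log2 fold change, tumors minus cultures (x axis), of the members of 18 gene lists and of all genes tested, in the Control arm (black circles, and crosses with the GC and gene length trend removed), the Palbociclib (orange triangles), Telaglenestat (green squares) and Combination arms (purple diamonds). Interferon, antigen presentation and hypoxia medians are above 1.5 in all 4 arms, S and G2/M medians are below 0 in all 4, and mitochondrially encoded genes are below 0 in the Control arm alone.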

How the data were processed

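Poly(A) RNA of 3 Control tumors, 3 Control cultures and 22 libraries of the drug arms was sequenced in single-end reads from a strand-marking kit. The authors called bases with CASAVA 1.8, aligned reads with STAR to hg38 and deposited whole-number read counts per gene, not normalized. The annotation release, the strand setting of the counting and the treatment of mouse reads are not given in the sources used here. Here, genes were matched to GENCODE 29 for type, position, length and GC content (57940 of 58278), filtered with filterByExpr (minimum count 10), scaled by TMM and tested with edgeR 4.0.16 in R 4.3.3 (glmQLFit and glmQLFTest, Benjamini-Hochberg adjustment, threshold 0.05), tumors minus cultures, in the 6 Control libraries alone. A gene too low in cultures to pass the filter there was tested only if the tumors passed it, and could not then be called lower. This holds in every list for members with few culture counts. Each drug arm had its own fit, and differences between arms were interaction contrasts over all 28 libraries. Replicates are separate tumors or separate culture lines as labelled, with the tumor of origin of a culture unstated, so p-values measure the spread between these samples.

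The comparison and the gene lists were chosen with earlier results of these data known, and no list was tested as a set. Genes were named by rule: the 15 largest rises and falls among protein-coding genes averaging 3 log2 CPM or more, with groups that did not overlap, 2 to 6 members per list by fold change, the drug targets and genes the study measured by protein or histology, and the 5 most abundant genes. Further list members (among them ISG15, IRF7, IRF9, STAT2, IFIT5, B2M, the HLA class I genes, TAP1, PDK1, VEGFA, LDHA, HSPA5, VIM, CD68, CSF1R, LYZ, ITGB1, CDK1, MCM5, CDC20 and members that did not pass) were chosen after their values were seen. Some genes that this rule names are not reported here. Of 197 genes named and tested, 57 overlap another annotated gene on the same strand and 101 one on the other strand, and reads in such overlaps cannot be assigned with certainty. Counting intervals are exact binomial at 95% and, like the floor of 3 counts, cover counting error only. The alternatives were DESeq2 1.42.0, its size factors, other filters, protein-coding genes alone, the replicate block, a GC and length trend removed by splines (MASS), all 28 libraries in 1 fit, and each Control library left out. S phase and G2/M lists come from Seurat 5.3.0, promoters from RefSeq (GRCh38.p14).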

Additional observations from a re-analysis of the deposited data

Results flagged for a closer look

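The test of the difference between the Control arm and a drug arm, tumors minus cultures, passed in edgeR for 215 genes against the Palbociclib arm, 5278 against the Telaglenestat arm and 450 against the Combination arm. Against the Palbociclib arm, 160 of the 215 genes had the higher log2 difference in the Control arm and 55 the lower. Against the Telaglenestat arm these were 2861 and 2417 genes, and against the Combination arm 123 and 327. The drug arms differ from the Control arm in drug, in the number of tumors and in their own GC trends, which cannot be told apart for the counts as a whole.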

How the results depend on the processing

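The counts of genes higher (3885) and lower (3656) in tumors stayed within 1.5 times under every alternative run, at 2596 to 4056 and 3240 to 3866. At least 2-fold higher genes numbered 1131 with the GC and length trend removed and 1085 with the replicate block and the trend removed, against 1995. The cause was not tested. In the Palbociclib, Telaglenestat and Combination arms 8165, 3869 and 6167 genes passed with the trend removed, an alternative chosen after seeing the data, against 9770, 3747 and 6219. With 1 Control library left out, genes higher numbered 3283 to 3897, genes lower 3240 to 3576, genes at least 2-fold higher 1711 to 2267 and at least 2-fold lower 506 to 770.

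Deviations of same-numbered tumors and cultures correlated at -0.044, -0.0042 and 0.0205, and those of differently numbered ones at -0.057 to 0.066. All 6 libraries share 1 parental line, so values near 0 cannot show whether replicate numbers pair tumors and cultures. With the replicate block 3667 genes were higher and 3489 lower, and differences from the Palbociclib arm fell to 98 genes, or 65 with the trend removed as well. The S phase and G2/M genes among them then numbered 8 and 15, or 2 and 11, and 10 G2/M genes differed from the Combination arm with the block.

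The difference from the Palbociclib arm (215 genes) became 456 with only the 4 groups in the fit, 479 with DESeq2, 608 with no filter on low counts and 137 with the trend removed, and 66 to 314 with 1 Control library left out. The difference from the Telaglenestat arm (5278 genes) became 863 with the trend removed and 716 with the replicate block as well. The difference from the Combination arm (450 genes) became 1864 with 4 groups, 720 with DESeq2, 281 with DESeq2 size factors and 1242 with no filter, and 126 to 333 with 1 Control library left out. The cause was not tested.

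Of 197 genes named, 7 changed direction, all with the trend removed and again with the replicate block added. Their log2 fold changes were then -0.0154 and -0.0178 for AKT1, -0.32 and -0.32 for CDK4, -0.39 and -0.40 for CDKN1A, -0.50 and -0.50 for CEBPB, -0.24 and -0.24 for FASN, -0.49 and -0.48 for MCM5, and -0.52 and -0.51 for PFKFB3. Another 19 genes lost and 10 gained a call under at least 1 alternative. List medians that crossed 0 were those of fatty acid synthesis, fatty acid oxidation, YAP/TEAD targets, p53 targets, endoplasmic reticulum folding and endothelial genes. Depth of 7198540 to 8849414 counts per library left genes under about 3 counts, 0.32 to 0.44 CPM, without a usable fold change.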

Other observations

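By gene type, 3629 of 12227 protein-coding genes tested were higher in tumors and 3433 lower. Of 297 lincRNA genes 48 were higher and 29 lower, of 463 antisense genes 56 were higher and 64 lower, and of 232 processed pseudogenes 65 were higher and 31 lower. Of the genes tested, 49 had no count in any Control culture, all of them called higher, and 1 had no count in any Control tumor. The mitochondrial chromosome took 6.78% to 7.22% of counts in Control tumors and 7.63% to 9.96% in Control cultures.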
